A study of Ovis aries with 16 samples.

Results

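The comparison described here is that of annulus fibrosus cells (AFC) from old sheep with AFC from young lambs. Annulus fibrosus cells resemble fibroblasts and build the concentric collagen lamellae that bind neighbouring vertebrae and hold the disc's hydrated centre under pressure. Type I collagen dominates these lamellae, and tears in them are a common feature of aged discs. Its libraries were chosen by their labels alone, as AF cells labelled Old or Young, which gave 8 of the 16 libraries of the series, 4 old and 4 young, each from a separate female animal of the Vendée breed. Young AFC came from lambs aged 6 months and old AFC from sheep aged 7 to 8 years, so growth, age and degeneration of the disc cannot be told apart. No treatment was given to either group. The cells were released enzymatically from several pooled lumbar discs of each animal and grown on plastic in serum-containing medium to passage 1, so the libraries represent cultured cells and not the tissue. Ordered by animal identifier, the old sheep are called O1 to O4 and the lambs Y1 to Y4. The other 8 libraries hold nucleus pulposus cells (NPC) of the same 8 animals. They were used to estimate the spread between animals and as a comparison.

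The unit described is the gene, by its Ensembl identifier, since the files do not pair identifiers with gene symbols and the symbol table used here matched none of them. For this reason the label of the cells could not be checked against markers of the annulus, and collagens, proteoglycans, senescence genes and markers of other cell types could not be counted. Levels are given as CPM (a gene's reads as a share of its library), scaled by edgeR's TMM factors. They compare a gene between libraries and not genes with each other, since they are not corrected for gene length. In bulk RNA, fewer cells of a type and less RNA per cell cannot be told apart.

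The 4 old AFC libraries held between 44390136 and 51800007 counts and the 4 young ones between 30391717 and 48346914. Y3 was the shallowest of the 8 and the other 3 young libraries held at least 43161323. Total counts did not separate the ages beyond the animals' spread (two-sided exact permutation test with 70 relabellings, p = 0.0571, adjusted p = 0.229 over 4 measures, where 0.0286 is the smallest p that 4 animals against 4 allow). Between 18405 and 18774 genes had a read in old and between 18296 and 18889 in young libraries (same exact test, p = 0.743). The 10 genes with most reads took 15.6% to 23.7% of the reads of old and 17.9% to 22.6% of those of young libraries (same exact test, p = 0.800). Distances of the libraries from the mean of their group, over the 500 most variable genes, also did not separate the ages (same exact test, p = 0.200). Within a group, chi-square over its degrees of freedom was 81.3 to 366 for the 12 pairs of libraries, well above counting noise, and no library was a repeat of another.

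Cultured AFC from old and young animals differed little in most genes. Of 15521 genes tested, 12732 (82.0%) had a fitted difference under 0.5 on the log2 scale. The median log2 fold change (old minus young) was 0.02. A difference over 2-fold was fitted for 449 genes that were higher and 690 that were lower in old AFC, of which 230 and 370 had a mean under 1 CPM. With a filter of 2 CPM in at least 4 libraries they were 168 and 307, and with no filter 2334 and 2742 (54% lower). Large differences were thus more often fitted on the lower side, and at over 4-fold there were 107 higher and 177 lower genes. Such fitted differences mostly did not separate the animals. Of the 1139 genes over 2-fold in either direction, the old and young libraries overlapped in 874, and 265 (23.3%) had all 4 old libraries on one side of all 4 young libraries.

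One gene, 1 of 15521 (0.00644%), reached a Benjamini-Hochberg adjusted p under 0.05 in the quasi-likelihood test of edgeR. It was higher in old AFC. Without adjustment, 1452 genes (9.36%) had a p under 0.05, of which 601 (3.87%) were higher and 851 (5.48%) lower in old AFC. limma-voom called 2 genes (0.0129%), both higher in old AFC. DESeq2 called 225 genes (1.45%) at the same threshold, 79 higher (0.509%) and 146 lower (0.941%). All 225 had an unadjusted p under 0.05 in edgeR, with adjusted p-values in that test from 0.0429 to 0.347. The count of changed genes thus depended on the tool.

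A separation of the ages that uses no model was also counted. In 627 genes (4.04%), the old and young libraries did not overlap, with 289 (1.86%) higher and 338 (2.18%) lower in old AFC. With labels given at random, a gene separates in either direction with a probability of 0.0286, so many of the 627 can arise without an age difference. The count was not tested against that value. The genes higher in old AFC had modest differences, with a median log2 fold change of 0.48, and 148 of them lay under 0.5. Those lower in old AFC had a median of -1.02, and only 73 of the 338 were smaller than 0.5 in size. Their median level was 4.53 CPM, against 16.4 CPM for the higher genes, so the sizes were not compared at like expression. Of the 225 genes called by DESeq2, 170 were among the 627, and in the other 55 at least an old and a young library overlapped.

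**Figure D1:**
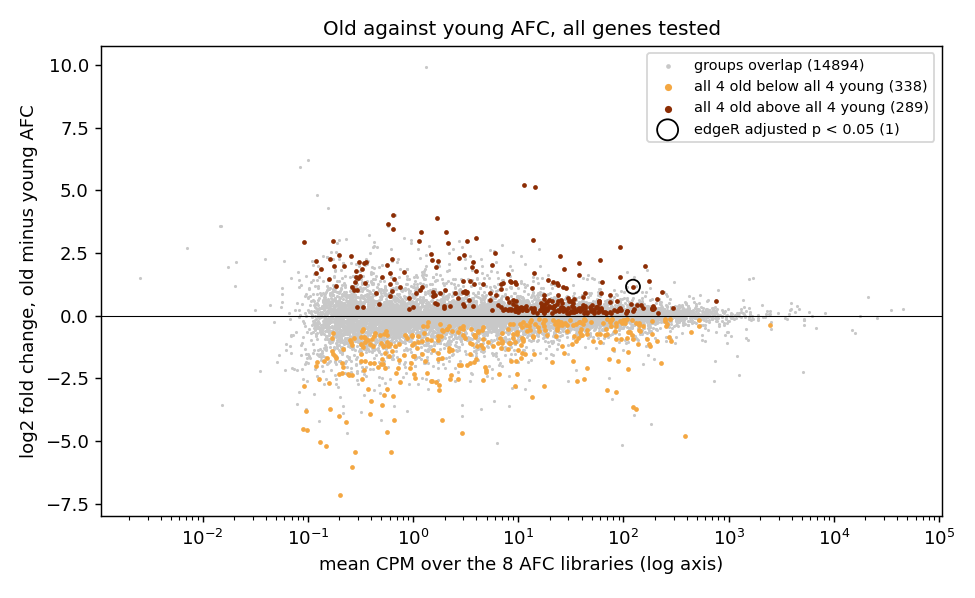
Log2 fold change of old minus young AFC (vertical axis) against mean CPM over the 8 AFC libraries (horizontal, log axis) for each gene tested. Coloured points are the 289 genes with all 4 old above all 4 young libraries and the 338 with all 4 old below. The circle marks the gene that passed edgeR's test, and the grey point near 9.91 is a gene whose groups overlap.

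The genes whose ages did not overlap were also counted by level of expression, beside 1.86% higher and 2.18% lower over all genes tested. Between 10 and 100 CPM, where 7260 genes lay, 147 genes (2.02%) had all old libraries above the young ones and 98 (1.35%) had them below. From 1 to 10 CPM (3833 genes) the counts were 76 (1.98%) and 101 (2.64%), and under 1 CPM (2816 genes) they were 44 (1.56%) and 100 (3.55%). From 100 to 1000 CPM (1528 genes), 22 genes (1.44%) were higher and 38 (2.49%) lower. Differences between these levels of expression were not tested. The spread of the fold change was widest among weakly expressed genes. The median standard error of the log2 fold change was 0.56 under 1 CPM, 0.29 from 1 to 10 CPM and 0.15 from 10 to 100 CPM. It was 0.15 from 100 to 1000 CPM and 0.23 at 1000 CPM and over.

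None of the most abundant transcripts of AFC passed edgeR's test or DESeq2's. The 84 genes with a mean of at least 1000 CPM took 35.8% of all AFC reads, and the lowest adjusted p among them in edgeR's quasi-likelihood test was 0.296. Their fitted log2 fold changes ran from -2.36 to 1.48, with 2 genes over 2-fold higher and 3 over 2-fold lower in old AFC. The groups did not overlap in 1 of the 84 (1.19%), on the lower side, beside 4.04% of all genes tested. An unadjusted p under 0.05 in edgeR was found for 8 of them (9.52%), close to the 9.36% over all genes, and DESeq2 called 0 of the 84 beside 1.45% of all genes. With 84 genes, these counts do not set the abundant transcripts apart from the rest.

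Genes with a read in all 4 libraries of one age and in none of the other were few and weak. Genes read in only some libraries of one age were not counted here, such as that with the largest fitted difference, given below. Of the 30722 genes of the table, 16 had a read in each of the 4 young libraries and none in old AFC, with 5 to 56 reads over the young group (median 11). The gene with 56 reads was at least 22.2-fold higher in young AFC, against a floor of 3 reads over the old group, and the highest mean level among the 16 was 0.414 CPM. In the other direction 9 genes had a read in each of the 4 old libraries and none in young AFC, with 4 to 10 reads over the old group. The gene with 10 reads was at least 2.81-fold higher in old AFC by the same floor. These counts describe reads at this depth and not absence of the transcripts.

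The genes given by name were the 2 in each direction with the smallest edgeR p among genes whose groups did not overlap and whose mean reached 1 CPM at either age. ENSOARG00020007922 was the gene that passed. It rose from 85.8, 92.7, 55.1 and 72.6 CPM in young AFC (Y1 to Y4) to 213, 149, 172 and 147 CPM in old AFC (O1 to O4). The lowest old library thus lay well above the highest young one. Young AFC averaged 76.5 ± 16.6 CPM (SD, n = 4) and old AFC 170 ± 30.7 CPM (SD, n = 4). The fitted ratio was 2.23-fold, or 1.15 ± 0.16 (standard error) on the log2 scale, with an adjusted p of 0.0429 in edgeR. It no longer passed when O1, O3 or any of Y1, Y3 and Y4 was left out, nor in the fit on the 8 AFC libraries alone, with log2 fold changes from 1.03 to 1.26 throughout and edgeR's adjusted p up to 0.229.

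ENSOARG00020034131 stood at 11.0, 10.3, 20.6 and 15.5 CPM in young AFC (Y1 to Y4). In old AFC it stood at 65.8, 40.5, 87.4 and 49.1 CPM (O1 to O4), so that the lowest old library was nearly at 2 times the highest young one. Its log2 fold change was 2.08 (standard error 0.34), or 4.24-fold, the larger of both higher genes. It did not pass edgeR's test (adjusted p = 0.133), while it passed in limma-voom (adjusted p = 0.0282) and DESeq2 (adjusted p = 2.3e-06).

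ENSOARG00020030153 had 2.85, 1.17, 4.00 and 3.32 CPM in young AFC (Y1 to Y4) and 0.396, 0.686, 0.273 and 0.443 CPM in old AFC (O1 to O4). These are 48 to 163 reads in each young and 13 to 36 reads in each old library, and the groups came closest between Y2 and O2. The log2 fold change was -2.65 (standard error 0.46), with an adjusted p of 0.133 in edgeR's test and of 2.1e-05 in DESeq2. ENSOARG00020022485 had 5.63, 2.32, 3.12 and 1.18 CPM in young AFC (Y1 to Y4) and 0.550, 0.381, 0.482 and 0.383 CPM in old AFC (O1 to O4). Old libraries were close to each other, at 19 to 25 reads, while young ones spread widely and Y4 was the lowest. Its log2 fold change was -2.76 (standard error 0.51), with an adjusted p of 0.133 in edgeR's test and of 4.3e-05 in DESeq2.

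Levels of these 4 genes in NPC of the same animals are given beside those in AFC. ENSOARG00020007922 had 57.1 ± 3.35 CPM (SD, n = 4) in young and 74.0 ± 8.95 CPM (SD, n = 4) in old NPC, and the fitted log2 difference was 0.37 (standard error 0.16) with an adjusted p of 0.702 in edgeR, so the mean of old AFC was the highest of the 4 groups. For ENSOARG00020034131 the means were 6.37 ± 2.65 and 15.7 ± 3.14 CPM (SD, n = 4 each), and the fitted log2 difference was 1.30 (standard error 0.33) with an adjusted p of 0.431 in edgeR and 0.0307 in DESeq2. Levels of the 4 genes were not tested between the tissues. ENSOARG00020030153 had 3.58 ± 0.988 CPM (SD, n = 4) in young and 0.518 ± 0.286 CPM (SD, n = 4) in old NPC, and ENSOARG00020022485 had 3.16 ± 1.32 and 0.607 ± 0.299 CPM (SD, n = 4 each). Their log2 fold changes in NPC were -2.78 (standard error 0.46) and -2.38 (standard error 0.50), neither past edgeR's threshold and both past DESeq2's. These genes were chosen by their values in AFC, which favours a larger difference there. Whether the age difference itself differed between AFC and NPC was tested in edgeR without a term for the animal, so the pairing of the tissues was not used. The test gave an unadjusted p of 0.00294 for ENSOARG00020007922, 0.11 for ENSOARG00020034131, 0.833 for ENSOARG00020030153 and 0.578 for ENSOARG00020022485. Its adjusted p was 0.999 in each of them.

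**Figure D2:**
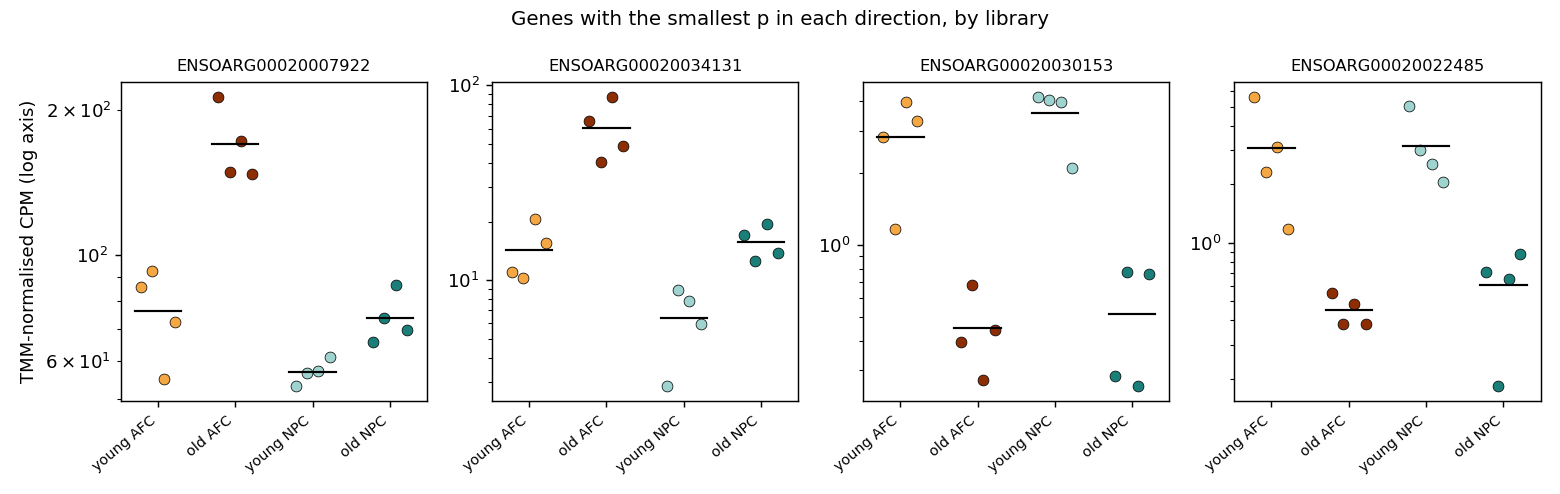
TMM-normalised CPM (log axes, a scale for each gene) of the 4 named genes in each library of young and old AFC and, beside them, of NPC. Points are single animals in the order 1 to 4 and lines are group means, and in each panel the 4 old AFC points lie apart from the 4 young AFC points.

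The differences over 2-fold were not carried evenly by the animals. Among the 690 genes over 2-fold lower in old AFC, Y3 was the highest young library in 413 (59.9%), Y2 in 133, Y4 in 85 and Y1 in 59. Over all genes tested, Y3 was the highest young library in 28.4%. In 231 of the 690 genes a single library held more than 50% of the summed CPM of the young group, and in 140 of these it was Y3. Among the 449 genes over 2-fold higher, O1 was the highest old library in 186 (41.4%), against 23.0% over all genes, and a single library held more than 50% of the old group's CPM in 164. The largest fitted difference, 9.91 on the log2 scale (adjusted p = 0.384 in edgeR's quasi-likelihood test), was of this kind. That gene had 8.54 CPM in O4, at most 2.08 CPM in the other old libraries, and no read in at least one old library or in any young one. Genes fitted as over 2-fold different were chosen here partly through such high libraries, so these shares are a description.

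**Figure D3:**
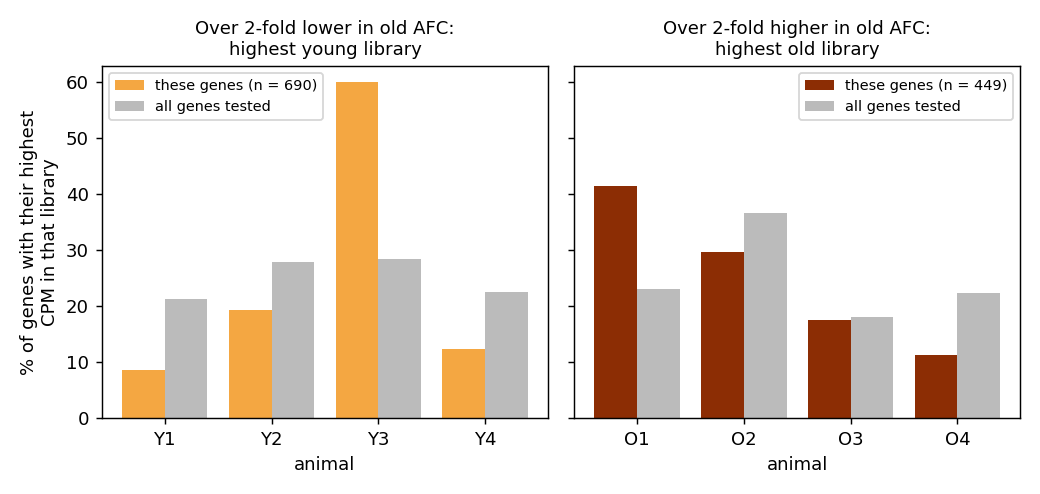
Percentage of genes whose highest CPM within the group fell in each library, for genes over 2-fold lower in old AFC (left, young libraries) and over 2-fold higher (right, old libraries), beside all genes tested (grey). Y3 was the highest young library in 59.9% of the 690 lower genes and O1 the highest old library in 41.4% of the 449 higher genes.

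The highest library was also counted in NPC of the same animals. Among the 690 lower genes, the NPC library of Y3 was the highest young NPC library in 307 (44.5%), against 25.2% over all genes. Where Y3 was the highest in AFC, its NPC library was the highest of young NPC in 224 of 413 genes (54.2%). That share was 43.7% over all genes for which Y3 was the highest young AFC library. Among the 449 higher genes, the highest old NPC library was most often that of O4, in 150 (33.4%, against 21.5% over all genes), and then that of O1, in 140 (31.2%, against 18.9%). Where O1 was the highest in AFC, its NPC library was the highest of old NPC in 97 of 186 genes (52.2%), against 35.4% over all genes for which O1 was the highest old AFC library.

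Counts of changed genes were also taken with each animal, that is both its libraries, left out in turn. Without Y3, DESeq2 called 55 genes in place of 225, 22 higher and 33 lower, and 52 of the 55 were among the 225. Fold changes moved less than the calls. DESeq2's median log2 fold change over the 79 higher genes was 1.86 with all animals and 1.78 without Y3, and over the 146 lower genes it was -1.84 and -1.58, leaving out 3 of the 225 that were then not tested. Over all 8 animals left out, the medians ran from 1.49 to 2.04 and from -2.04 to -1.58. The 225 were called on all animals, so their direction is largely set by that choice. The unadjusted p-values under 0.05 in edgeR fell to 765, and the genes over 2-fold were 477 higher and 531 lower, so that 52.7% of them were lower in place of 60.6%. Leaving out O1 or O3 reduced the DESeq2 count to 100 and 119, and leaving out Y4 or Y2 to 153 and 179. It rose to 268 without O2, 366 without Y1 and 406 without O4, and in the last case 300 of the genes were lower in old AFC. With all 16 libraries thinned to the total of the smallest, the genes over 2-fold numbered 381 higher and 613 lower (61.7% lower).

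**Figure D4:**
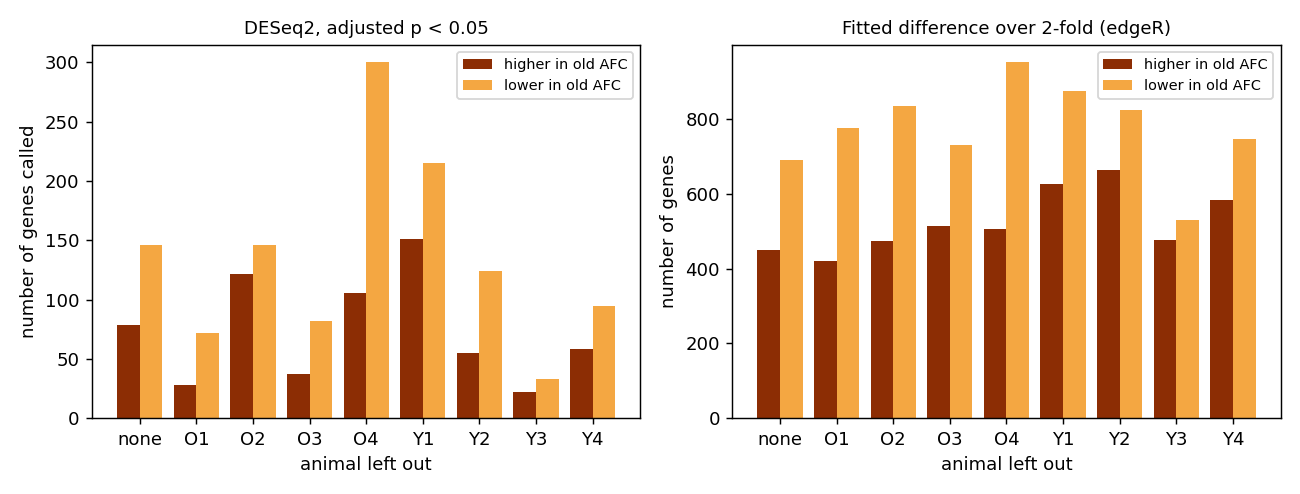
Number of genes called by DESeq2 at an adjusted p under 0.05 (left) and number fitted by edgeR as over 2-fold different (right) between old and young AFC, with all animals (none) and with each animal left out. Dark bars are genes higher and light bars genes lower in old AFC, and both lower counts were smallest without Y3, at 33 and 531 genes.

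The study grouped genes by co-expression over the same 16 libraries (WGCNA modules) and listed the leading genes of each module, of which 11 were given by identifier. These 11 were chosen on these libraries, so their direction is not independent evidence, and none passed edgeR's test over all genes. The Cyan and Green modules were associated with young age in the study. All 6 of their genes had a lower mean in old AFC, with a median log2 fold change of -1.26 against 0.02 over all genes tested. All 6 had an unadjusted p under 0.05 in edgeR, as had 5.48% of all genes on the lower side, and DESeq2 called 3, beside 0.941% of all genes on that side. Only 1 of the 6 had groups that did not overlap, the tenth entry of Green, against 2.18% of all genes on the lower side. It stood at 37.5, 45.5, 73.9 and 48.0 CPM in young AFC (Y1 to Y4) and at 24.6, 26.2, 32.7 and 35.2 CPM in old AFC (O1 to O4). The leading entry of Cyan had 14.3, 18.0, 25.7 and 6.27 CPM in young and 1.5, 2.95, 2.18 and 6.57 CPM in old AFC, where Y4 lay just under O4. Y3 was the highest young library in 5 of the 6 genes.

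The Pink module was associated with old age. Its sixth entry had 14.6, 12.7, 11.9 and 15.2 CPM in young AFC (Y1 to Y4) and 23.6, 24.2, 18.7 and 19.6 CPM in old AFC (O1 to O4), without overlap, and its log2 difference was 0.66 (standard error 0.17), with an adjusted p of 0.243 in edgeR and 0.0363 in DESeq2. Its other gene, entry 21, ranged from 0.880 to 32.0 CPM in young and from 8.56 to 46.6 CPM in old AFC, so the groups overlapped. The Yellow and Magenta modules were associated with AFC over NPC. The leading entry of Yellow had 2.45, 1.08, 2.27 and 3.05 CPM in young and 12.4, 4.17, 12.3 and 7.03 CPM in old AFC, and its groups did not overlap. Its log2 fold change between the ages was 2.01 in AFC (standard error 0.56) and -0.50 in NPC (standard error 0.58). For the difference between these 2 age differences, edgeR's interaction test without an animal term gave an unadjusted p of 0.00675 and an adjusted p of 0.999. The other Yellow gene and the Magenta gene had log2 fold changes of 0.21 (standard error 0.23) and 0.10 (standard error 0.17), within their errors.

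**Figure D5:**
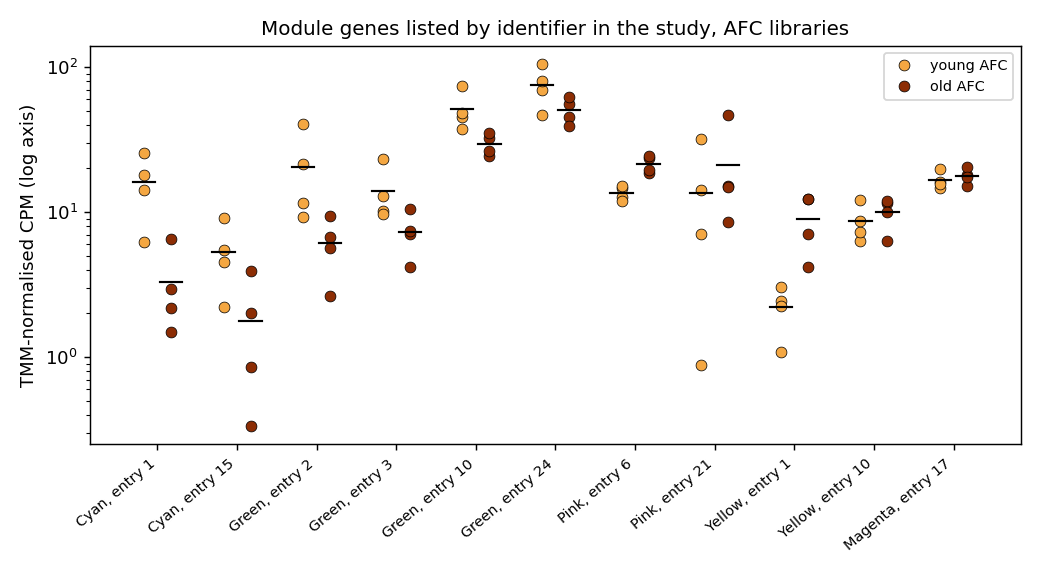
TMM-normalised CPM (log axis) of the 11 module genes that the study listed by identifier, in the 4 young and 4 old AFC libraries, with lines at the group means. Genes are named by module and by their place in its list, and the ages do not overlap for the tenth entry of Green, the sixth of Pink and the first of Yellow.

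Whether the age difference in AFC differed from that in NPC was tested gene by gene. The interaction term reached the threshold for 0 genes in edgeR and in limma-voom, and 683 genes (4.4%) had an unadjusted p under 0.05 in edgeR. DESeq2 called 5 genes (0.0322%). With the animal as a fixed replicate block, edgeR called 0 and DESeq2 72. The 79 genes that DESeq2 called higher in old AFC had a median log2 fold change of 1.86 in AFC and 0.42 in NPC, and the 146 lower genes had medians of -1.84 and -0.46. These genes were chosen by their values in AFC, so a larger difference there is no finding, and the AFC and NPC libraries came from the same animals. DESeq2 called 23 of the 225 genes in NPC, where it called 0.457% of all genes tested. In NPC, 370 genes were fitted as over 2-fold higher and 492 as over 2-fold lower in old cells, so 57.1% of them were lower, beside 60.6% in AFC.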

How the data were processed

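RNA was sequenced from AFC and NPC at passage 1 of 4 lambs and 4 old sheep, in 16 stranded mRNA libraries. The authors aligned reads with STAR to the Ensembl Rambouillet genome (ARS-UI_Ramb_v2.0) and deposited the raw read counts of Ensembl genes, those at 0 included. The submitters' processing notes also name FastQC 0.11.8, fastp, STAR 2.7.10b and HTSeq 2.0.3, and the strand setting of the counting is not given in the sources used here. Reads of overlapping and antisense genes may therefore not be told apart. All 16 columns were assigned by their labels, with none left out.

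Genes passing edgeR's filterByExpr over the 4 groups (15521 of 30722, with 99.98% of AFC reads) were scaled by TMM, with 1 mean per group in the fit (edgeR 4.0.16, limma 3.58.1 and DESeq2 1.42.0 in R 4.3.3). The contrast was old minus young AFC, tested by quasi-likelihood in edgeR, with p-values adjusted after Benjamini and Hochberg and a threshold of 0.05. The study's methods state DESeq2, which was an alternative here. A standard error is the size of a log2 fold change over the root of its F value. Animals, not repeat cultures, were the replicates. Log2 CPM for distances used a prior count of 2.

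AFC and NPC of a number came from one animal by the labels. The correlation of their deviations from the group means averaged 0.23, ran from -0.19 to 0.53 and was over 0.1 in 6 of 8 animals. Age differs between animals, so a fixed block could not be fitted to it, and the animal was a random replicate block in limma-voom. The members and lists were chosen with earlier results of these data known. The genes given by name follow a rule on direction, overlap and edgeR p, with at most 2 identifiers in each direction because symbols could not be paired with identifiers. The table of symbols used, for assembly ARS-UI_Ramb_v3.0, holds none of the identifiers. Gene sets, markers and sequences were therefore not analysed here. The tests of old against young AFC by edgeR, DESeq2 and limma-voom were tested on simulated data, in which DESeq2 made more right calls and also more false calls than the others. Totals are reads counted on genes, and intervals or floors cover counting error only.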

Additional observations from a re-analysis of the deposited data

Results flagged for a closer look

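Values far from the rest of their group were looked for in 38 groups of 4 AFC libraries (4 measures of the libraries and the levels of the 4 named and 11 module genes). A single group held one, where about 1 in 20 is found by chance. Y1 was the young AFC library nearest to its group mean over the 500 most variable genes, at a distance of 28.3, while the other 3 were 35.4 to 36.6 away. Without Y1, DESeq2 called 366 genes in place of 225.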

How the results depend on the processing

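The count of genes changed between old and young AFC was 1 in edgeR and stayed at 1 with RLE normalisation, with each of the 3 other low-count filters, after thinning, at an adjusted p under 0.1 and on the 8 AFC libraries alone, where the gene called was lower in old AFC and ENSOARG00020007922 had an adjusted p of 0.229. It was 2 in limma-voom, 225 in DESeq2 (79 higher and 146 lower in old AFC) and 350 in DESeq2 at an adjusted p under 0.1. DESeq2 on the 8 AFC libraries alone also called 225, but with 98 higher and 127 lower. With the animal as a random replicate block the count was 2 in limma-voom, beside 0 for the interaction. With each animal left out it ranged from 0 to 7 in edgeR and, chosen after the data were examined, from 55 to 406 in DESeq2 (100, 268, 119 and 406 without O1 to O4, and 366, 179, 55 and 153 without Y1 to Y4). The count for the interaction of age and tissue was 0 in edgeR and 5 in DESeq2, and with the animal as a fixed replicate block, also chosen after the data were examined, 72 in DESeq2 and 0 in edgeR. The genes whose ages did not overlap numbered 627, and between 454 and 628 with RLE, a filter of 2 CPM or thinning. With an animal left out, also chosen after the data were examined, they numbered from 760 to 1469, where fewer libraries have to be apart. The genes over 2-fold higher and lower, 449 and 690, were 197 and 321 at a mean count of at least 50, 168 and 307 at 2 CPM and 2334 and 2742 with no filter. DESeq2 called 5 of the 11 module genes in place of 0, beside 1.45% of all genes tested. The tested genes had a median log2 fold change of 0.02 under both TMM and RLE, and the cause of the difference between the tools was not tested.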
